A study of Mus musculus with 14 samples.

Results

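The 9 genes described here encode the cytosolic heat shock chaperones and their main transcription factor, namely Hspa1a, Hspa1b, Hspa8, Hsph1, Hsp90aa1, Hsp90ab1, Dnajb1, Hspb1 and Hsf1. They were taken by name from a table of 21152 mouse genes, in which all 9 had a row. The table holds RNA levels in 14 libraries from tumours that LLC1 cells, an established Lewis lung carcinoma line of the mouse, formed in mice treated for 16 days. There were 4 libraries from vehicle-treated mice (DMSO), 4 from mice given MYCi975 at 50 mg/kg, 3 from mice given TMP195 at 50 mg/kg and 3 from mice given both. MYCi975 binds and inhibits the oncoprotein MYC, whereas TMP195 blocks histone deacetylases of class IIa. The sources used here do not give the doses within the combination, the strain and age of the mice or the implantation site, and all groups carried the same tumour line. RNA came from a suspension of tumour cells enriched for the tumour fraction, and no label says that each library is a separate animal. A p-value below therefore rests on the spread among libraries, and part of that spread may be technical.

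Heat shock chaperones keep other proteins folded. HSP70 proteins bind unfolded stretches, hold them tightly after ATP hydrolysis and release them when new ATP binds. J-domain proteins such as DNAJB1 bring clients to HSP70 and start that hydrolysis, and HSP110 proteins such as HSPH1 exchange the spent nucleotide. HSP90 takes over partly folded clients, among them many kinases and receptors of tumour cells, while the small heat shock protein HSPB1 holds unfolded proteins without ATP. Under proteotoxic stress HSF1 forms trimers, binds heat shock elements made of inverted GAA units and induces the stress forms. Hspa8 and Hsp90ab1 are the forms made in unstressed cells, whereas Hspa1a, Hspa1b and Hsp90aa1 are the more inducible forms. Breaking up a tissue into single cells can itself induce these genes together with immediate early genes such as Fos and Jun.

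The sequences before the start sites show how alike Hspa1a and Hspa1b are and where pairs of inverted GAA units lie. RefSeq promoter sequences (GRCm38.p6) were matched by symbol for 5 of the 9 genes, and the 120 bases before the start site are given 5′ to 3′ on the gene's strand. Capitals mark each GAANNTTC or TTCNNGAA, the 2 ways in which a pair of inverted units can stand, each of which reads the same on both strands. Hspa1a is from chr17:34972157-34972276 and Hspa1b from chr17:34959239-34959358, both on the minus strand. Hsph1 is from chr5:149636316-149636435, minus strand, Hspb1 from chr5:135887799-135887918, plus strand, and Dnajb1 from chr8:83608055-83608174, plus strand.
Hspa1a: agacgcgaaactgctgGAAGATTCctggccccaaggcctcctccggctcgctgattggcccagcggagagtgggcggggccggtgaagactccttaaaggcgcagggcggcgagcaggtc
Hspa1b: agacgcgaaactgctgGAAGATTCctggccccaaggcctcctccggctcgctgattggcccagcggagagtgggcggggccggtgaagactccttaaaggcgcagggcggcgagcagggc
Hsph1: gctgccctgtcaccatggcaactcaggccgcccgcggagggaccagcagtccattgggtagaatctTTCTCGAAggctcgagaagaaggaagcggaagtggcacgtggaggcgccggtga
Hspb1: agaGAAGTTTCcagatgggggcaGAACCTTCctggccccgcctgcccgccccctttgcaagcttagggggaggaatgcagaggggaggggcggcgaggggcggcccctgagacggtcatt
Dnajb1: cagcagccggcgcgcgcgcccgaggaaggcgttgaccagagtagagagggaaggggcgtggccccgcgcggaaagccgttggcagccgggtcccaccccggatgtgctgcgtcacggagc

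Over the 250 bases before their start sites Hspa1a and Hspa1b were identical at 247 positions, with 1 shared run of 201 bases. Both hold GAAGATTC at positions -104 to -97 from the start site. Hsph1 holds TTCTCGAA at -54 to -47 from the start site used above, which is -33 to -26 from its other annotated start. Hspb1 holds GAAGTTTC at -117 to -110 and GAACCTTC at -97 to -90. No such pair of units lay in the 250 bases before either annotated start of Dnajb1. Of 32851 promoter windows of the same length, 6.69% held GAANNTTC, 7.17% held TTCNNGAA and 12.8% held at least 1 of them. A run of 3 such units in a row on either strand contains both pairs and was found in 0.466% of the windows and in none of these 5 genes. A match describes the letters only and does not show that HSF1 binds there.

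Several of these genes have close copies elsewhere in the genome, and reads that fit more than 1 copy are split by the quantification. For the longest coding transcript of each gene in GENCODE M21, the share of 31-base words that also occur in transcripts of other genes was counted. It was 65.4% for Hspa1a and 68.0% for Hspa1b, nearly all of it between the pair, which share a run of 638 identical bases. It was 77.2% for Hspa8 and 62.9% for Hsp90aa1, mostly with the predicted genes Gm15459 and Gm12346 respectively. Hsp90ab1 shared 16.6% and Hspb1 56.7%, the latter with the copy Hsp25-ps1 alone. Hsph1 shared 0%, Hsf1 0.434% and Dnajb1 0.441%, so these genes have almost no sequence in common with others. The copies Gm15459, Gm8355 and Gm6210 of Hspa8 lay between 4.05 and 6.24 in the table, and those of Hsp90aa1 (Gm12346, Gm5844 and Gm5511) between 4.39 and 7.46. Hspa1a and Hspa1b are therefore uncertain as single genes and are best read as a pair.

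Values are the authors' variance-stabilised expression levels on a log2 scale, with a shared floor of 4.05 that stands for no reads, and the depth of the libraries is unknown. Between 880 and 2954 genes of a library were at the floor. MYCi975 replicate 2 stood apart, with a median correlation with the other libraries of 0.936 against 0.964 to 0.974 for the rest. The epithelial keratin genes Krt8 and Krt18, expressed in carcinomas, lay between 7.84 and 8.88, whereas Epcam averaged 4.41, near the floor. The leukocyte gene Ptprc ran from 9.65 to 12.07, and this gene marks host cells rather than carcinoma cells. In such bulk material fewer cells of a type and less RNA per cell cannot be told apart. Levels are compared only within a gene, since these values are not scaled by length.

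No gene of the table passed limma's test in any of the 6 comparisons made (each treatment with vehicle, the combination with each single agent, and the interaction of the agents). The share called after Benjamini-Hochberg adjustment over 13711 tested genes was 0% in each, and none of the 8 chaperone genes tested was called. The ninth, Hspb1, did not pass the filter on low values. The differences below are therefore given as sizes with 95% intervals, not as changes. The comparisons with vehicle share the 4 vehicle libraries.

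**Figure D1:**
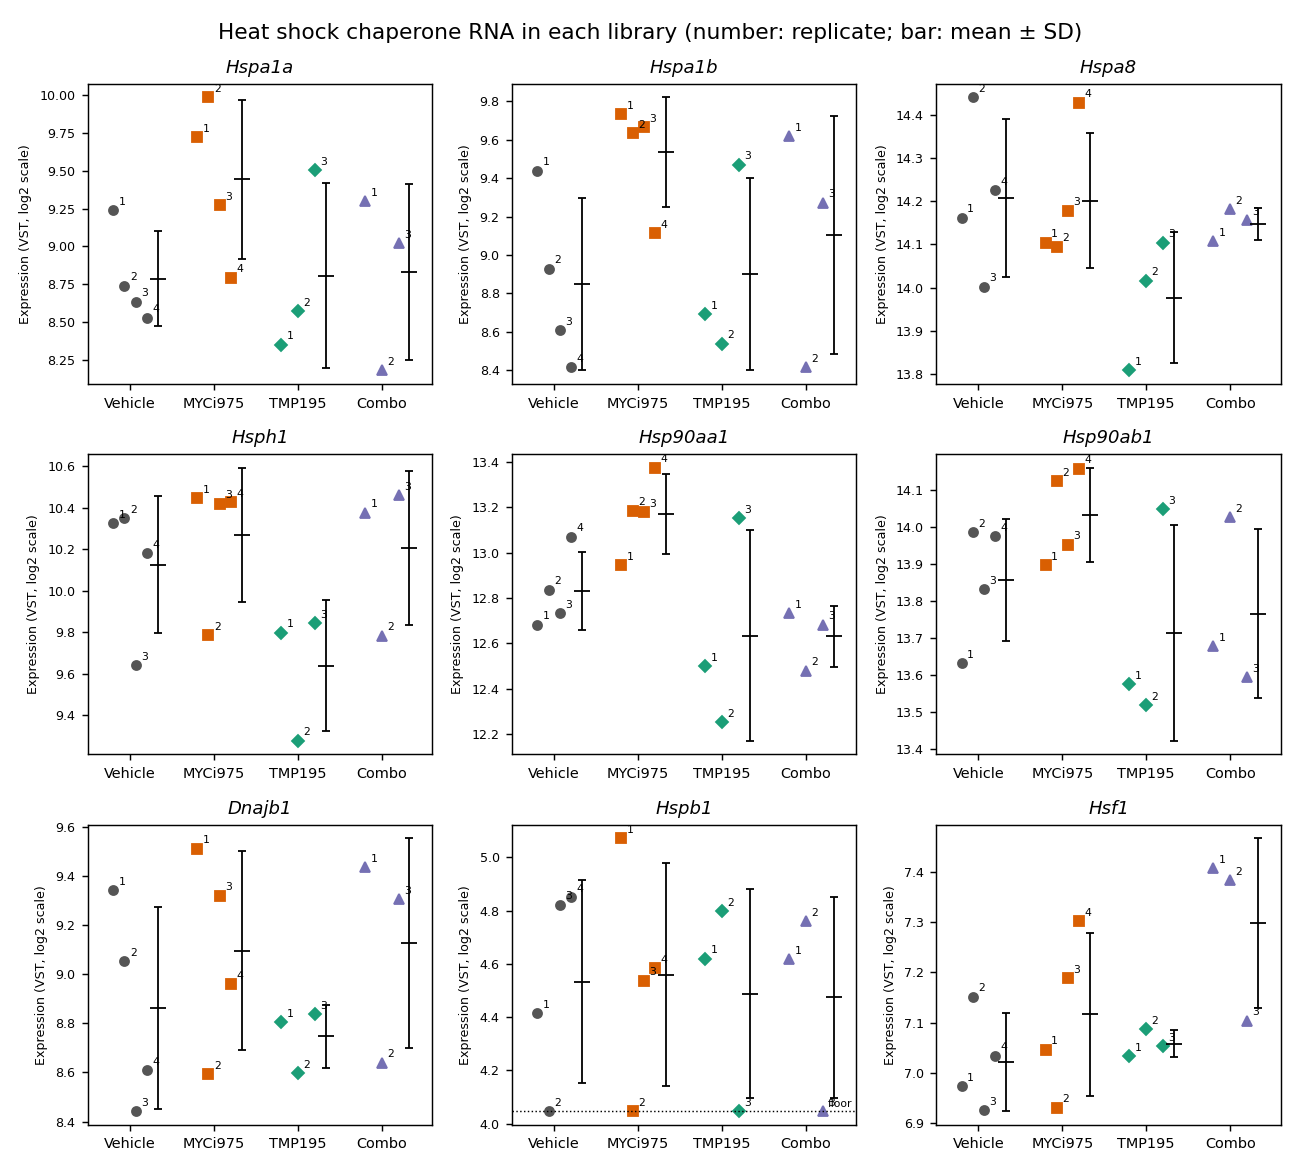
Expression of the 9 genes in each library (y axis, variance-stabilised log2 scale, a separate range per gene) by treatment group (x axis), where points are libraries with their replicate numbers and bars are the group mean ± SD. The MYCi975 libraries of Hspa1b lie between 9.11 and 9.73 and those of Hsp90aa1 between 12.95 and 13.38, above all combination libraries of Hsp90aa1, while Hspb1 stays near the floor.

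The inducible HSP70 pair averaged higher with MYCi975 than with vehicle, without passing the test, and varied widely between libraries of one group. Hspa1b (ENSMUSG00000090877.4) was 9.44, 8.93, 8.61 and 8.42 in vehicle replicates 1 to 4 and 9.73, 9.63, 9.66 and 9.11 in the MYCi975 libraries. It was 8.69, 8.54 and 9.47 with TMP195 and 9.62, 8.42 and 9.27 with the combination. Each MYCi975 library lay above 3 of the 4 vehicle libraries, but vehicle replicate 1 lay above MYCi975 replicate 4, so the groups overlapped. The difference was 0.69 (95% interval 0.10 to 1.28, limma adjusted p = 0.999 over all genes).

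Hspa1a (ENSMUSG00000091971.4), which encodes a near-identical protein, was 9.24, 8.74, 8.64 and 8.53 with vehicle and 9.72, 9.98, 9.27 and 8.79 with MYCi975. It was 8.35, 8.57 and 9.50 with TMP195 and 9.30, 8.18 and 9.02 with the combination. MYCi975 replicate 2 was the highest library for Hspa1a and combination replicate 2 the lowest. The MYCi975 difference was 0.66 (95% interval 0.02 to 1.30), and without MYCi975 replicate 2 it was 0.48. With both copies replaced by the mean of their values it was 0.67 (limma adjusted p = 0.999), an average chosen after seeing the data.

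With TMP195 and with the combination the pair lay close to vehicle on average. For Hspa1b the differences were 0.05 (95% interval -0.58 to 0.69) and 0.25 (-0.38 to 0.89), and for Hspa1a 0.02 (-0.67 to 0.71) and 0.05 (-0.64 to 0.74). Both groups were split. TMP195 replicate 3 lay about as high as the MYCi975 libraries and the other two near the lowest vehicle libraries, while combination replicate 2 lay at the bottom of the range and replicate 1 near its top. Without TMP195 replicate 3 the Hspa1a difference from vehicle was -0.325, and without combination replicate 2 the difference of the combination was 0.37. Between the combination and MYCi975 alone Hspa1a differed by -0.61 (95% interval -1.30 to 0.08) and Hspa1b by -0.43 (-1.07 to 0.20). Without combination replicate 2 these differences were -0.28 and -0.091.

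Immediate early genes were also at their highest in MYCi975 libraries. All 15 genes of a list of immediate early and dissociation genes (Fos, Jun, Egr1, Atf3 and others) were higher on average with MYCi975 than with vehicle, with a median difference of 0.51 against 0.01 over all tested genes, and none was called. Without MYCi975 replicate 2 it was 14 of 15 genes, with a median of 0.16. Their summed level on the log2 scale ran from 13.24 to 13.97 with vehicle, 13.32 to 14.90 with MYCi975, 13.36 to 13.72 with TMP195 and 13.21 to 13.66 with the combination. The library mean of the list was highest in MYCi975 replicates 2 (1.30) and 1 (0.68), the libraries in which Hspa1a was also highest. Neutrophil markers, too, were higher with MYCi975 for 5 of 5 genes, by a median of 0.62, or 0.31 without MYCi975 replicate 2. This was not particular to MYCi975, since 5 of 5 were also higher with TMP195 than with vehicle, by a median of 0.31. The summed level of the neutrophil markers was 11.39 to 12.38 with vehicle, 11.72 to 13.53 with MYCi975 and 12.03 to 12.63 with TMP195. For the combination against MYCi975, all 15 immediate early genes and all 5 neutrophil genes were lower, by medians of -0.62 and -0.90. Without MYCi975 replicate 2 these were 13 of 15 genes with a median of -0.30 and 5 of 5 with a median of -0.66. The part of either list in the HSP70 values was not tested.

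Hspa8 (ENSMUSG00000015656.18), the constitutive HSP70 that also uncoats clathrin vesicles, varied far less than the inducible pair. It was 14.16, 14.44, 14.002 and 14.23 with vehicle, 14.10, 14.09, 14.18 and 14.43 with MYCi975, 13.81, 14.02 and 14.10 with TMP195 and 14.11, 14.18 and 14.16 with the combination. Its residual spread between libraries of a group was 0.15 (SD), lower than that of all but 9.87% of tested genes, while Hspa1a at 0.50 and Hspa1b at 0.46 exceeded 94.5% and 92.1% of them. The TMP195 libraries lay at or below the middle of the vehicle range, with a difference of -0.23 (95% interval -0.58 to 0.12), or -0.15 without TMP195 replicate 1. All 3 combination libraries lay just above the highest TMP195 library, by a mean of 0.17 (-0.20 to 0.55), or 0.088 without TMP195 replicate 1. Within a library, Hspa1b minus Hspa8 was -5.81 to -4.72 with vehicle and -5.31 to -4.37 with MYCi975, and these ranges overlapped.

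Among the partners of HSP70, Hsph1 was below 10 in all TMP195 libraries. Hsph1 (ENSMUSG00000029657.16), the HSP110 nucleotide exchange factor, was 10.33, 10.35, 9.64 and 10.18 with vehicle, 10.45, 9.79, 10.42 and 10.43 with MYCi975, 9.80, 9.28 and 9.84 with TMP195 and 10.38, 9.78 and 10.46 with the combination. Below 10 lay the 3 TMP195 libraries together with vehicle replicate 3, MYCi975 replicate 2 and combination replicate 2, and the other 8 libraries lay between 10.18 and 10.46. TMP195 differed from vehicle by -0.49 (95% interval -0.97 to -0.01, limma adjusted p = 0.9996) and the combination from TMP195 by 0.57 (0.05 to 1.08, adjusted p = 0.998). Without vehicle replicate 3 the first difference was -0.65, and without TMP195 replicate 2 it was -0.31. With MYCi975 the difference from vehicle was 0.14 (-0.30 to 0.59), and 0.31 without MYCi975 replicate 2. The 2 skeletal muscle genes that could be tested of 6 were lower with TMP195 than with vehicle, by a median of -1.45, with the summed level of the list at 6.97 to 9.73 with vehicle and 7.08 to 7.46 with TMP195. Without vehicle replicate 3 that median was -0.90. Over the 14 libraries the mean of these 2 genes and Hsph1 had r = -0.21 (permutation p = 0.465, adjusted p = 0.752). The value was 0.15 without MYCi975 replicate 2 and vehicle replicate 3, and -0.63 with values centred on group means. The part of the muscle genes in the Hsph1 values was not tested.

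Dnajb1 (ENSMUSG00000005483.11), the J-domain partner of the inducible HSP70, had group means at most 0.38 apart, next to a residual SD of 0.37 between libraries of a group. It was 9.34, 9.05, 8.44 and 8.61 with vehicle, 9.51, 8.59, 9.32 and 8.96 with MYCi975, 8.80, 8.60 and 8.84 with TMP195 and 9.44, 8.64 and 9.31 with the combination. The 3 TMP195 libraries lay in a narrow band inside the vehicle range, and the other groups spanned nearly the same range as each other. Its differences from vehicle were 0.24 (95% interval -0.26 to 0.73) with MYCi975, -0.11 (-0.65 to 0.42) with TMP195 and 0.27 (-0.26 to 0.80) with the combination. Leaving out single libraries gave 0.096 (without vehicle replicate 3) to 0.40 (without MYCi975 replicate 2) for the first and 0.11 to 0.51 (without combination replicates 1 and 2 in turn) for the last.

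**Figure D2:**
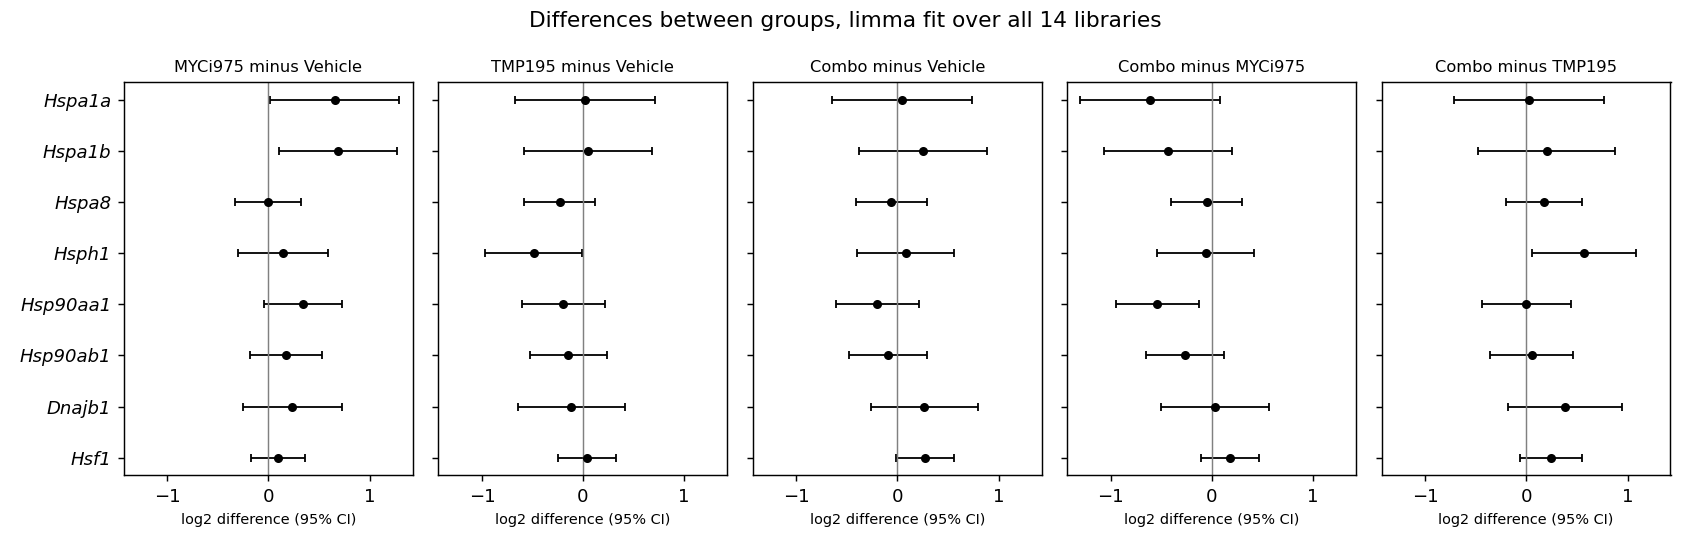
Differences in expression between groups (x axis, log2 scale, points with 95% intervals from the limma fit) for the 8 genes tested (y axis), with 1 panel per comparison. Only a few intervals leave out 0, among them Hspa1b for MYCi975 minus vehicle (0.69) and Hsp90aa1 for the combination minus MYCi975 (-0.54), and none passed after adjustment over all genes.

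Both HSP90 genes had their highest group mean with MYCi975. Hsp90aa1 (ENSMUSG00000021270.14), the stress-inducible form, was 12.68, 12.84, 12.73 and 13.07 with vehicle and 12.95, 13.19, 13.18 and 13.38 with MYCi975. It was 12.50, 12.25 and 13.15 with TMP195 and 12.73, 12.48 and 12.68 with the combination. All 4 MYCi975 libraries lay above all 3 combination libraries, while the vehicle libraries overlapped both. The combination differed from MYCi975 by -0.54 (95% interval -0.95 to -0.13, limma adjusted p = 0.611), and leaving out single libraries gave -0.62 to -0.46. In the same comparison 7 of 7 tested leukocyte genes were lower, by a median of -0.50, with a summed level of 12.91 to 14.10 with MYCi975 and 12.57 to 13.08 with the combination, and their part was not tested. Without MYCi975 replicate 2, the library at 14.10, 6 of 7 were lower, by a median of -0.31. Over the 14 libraries the leukocyte mean and Hsp90aa1 had r = 0.30 (permutation p = 0.295, adjusted p = 0.697). The value was -0.093 without MYCi975 replicate 2 and TMP195 replicate 3, and 0.26 with values centred on group means. For Hsp90aa1 the other differences follow. MYCi975 differed from vehicle by 0.34 (-0.04 to 0.72), and the combination from vehicle by -0.20 (-0.61 to 0.21). TMP195 was split, with replicate 3 as high as the MYCi975 libraries and the other two below or level with the lowest combination library, and its difference from vehicle was -0.20 (-0.61 to 0.22). Without TMP195 replicate 3 that was -0.45, and without TMP195 replicate 2 it was -0.0051.

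Hsp90ab1 (ENSMUSG00000023944.15), the constitutive form, also had its highest mean with MYCi975, with smaller differences. It was 13.63, 13.99, 13.83 and 13.98 with vehicle, 13.90, 14.12, 13.95 and 14.16 with MYCi975, 13.57, 13.52 and 14.05 with TMP195 and 13.68, 14.03 and 13.59 with the combination. Its ranges overlapped in every pair of groups compared, and the combination differed from MYCi975 by -0.27 (95% interval -0.65 to 0.12). Within a library Hsp90aa1 minus Hsp90ab1 averaged -1.03 ± 0.12 (SD over 4 libraries) in the vehicle group and -0.86 ± 0.10 (4 libraries) in the MYCi975 group. The same offset was -1.08 ± 0.18 (3 libraries) for TMP195 and -1.13 ± 0.36 (3 libraries) for the combination. The lowest offset was that of combination replicate 2, at -1.55, where Hsp90ab1 was high and Hsp90aa1 low.

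Hspb1 RNA (ENSMUSG00000004951.11) was at or near the floor in every group. It was 4.42, 4.05, 4.82 and 4.85 with vehicle, 5.07, 4.05, 4.54 and 4.58 with MYCi975, 4.62, 4.80 and 4.05 with TMP195 and 4.62, 4.76 and 4.05 with the combination. It was listed at the floor in 4 of 14 libraries, 1 in each group. In these 4 libraries the near-identical copy Hsp25-ps1 was above the floor, while that copy was at the floor in 7 of the 10 libraries with a value for Hspb1. Neither exceeded 5.37 in any library, so their values together remain low whichever of the copies the reads came from. Other small heat shock protein genes were low as well, with Cryab at a mean of 4.66, and Hspb8 between 6.97 and 7.58 was the 1 gene of that list that could be tested. No comparison of Hspb1 between groups was made.

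**Figure D3:**
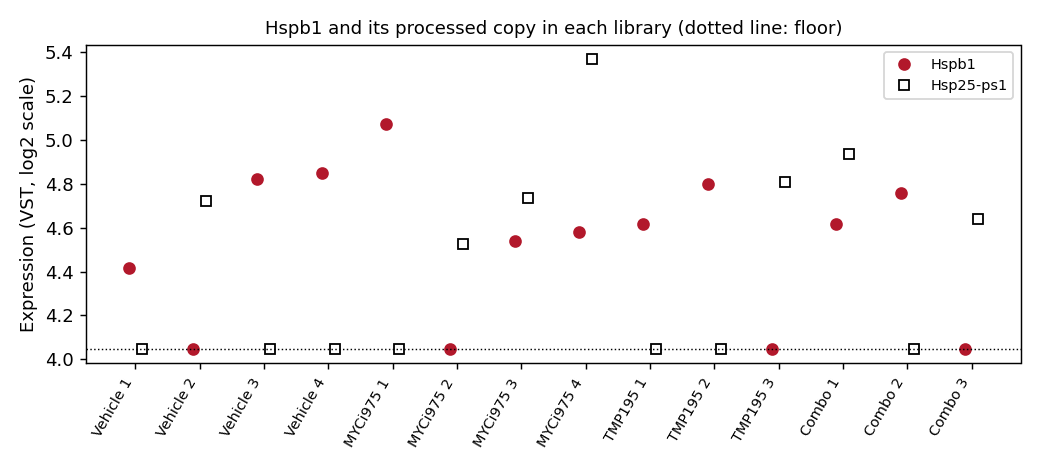
Expression of Hspb1 (filled circles) and of its near-identical copy Hsp25-ps1 (open squares) in each of the 14 libraries (x axis) on the variance-stabilised log2 scale (y axis), with the floor of 4.05 as a dotted line. In the 4 libraries with Hspb1 at the floor the copy lies above it, and no point exceeds 5.37.

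Hsf1 (ENSMUSG00000022556.12), the factor that controls the stress forms mostly through its protein's activity, was among the steadiest genes. It was 6.97, 7.15, 6.93 and 7.03 with vehicle, 7.05, 6.93, 7.19 and 7.30 with MYCi975, 7.03, 7.09 and 7.05 with TMP195 and 7.41, 7.38 and 7.10 with the combination. Its residual SD of 0.13 exceeded that of 4.996% of tested genes. Combination replicates 1 and 2 were the highest 2 of all libraries, and replicate 3 lay within the vehicle range. The combination differed from vehicle by 0.28 (95% interval -0.01 to 0.56, limma adjusted p = 0.992). All 3 combination libraries lay above the TMP195 libraries, by a mean of 0.24 (-0.07 to 0.55).

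Counts over the 8 tested genes were read against those over all 13711. At an unadjusted p under 0.05, 2 of 8 were higher with MYCi975 than with vehicle, where 1.85% of all tested genes were. These 2 are Hspa1a and Hspa1b, which share most of their sequence and so do not count as separate observations. Hsph1 was the 1 gene lower with TMP195 (1.31% of all genes) and the 1 gene higher with the combination than with TMP195 (1.66%), and Hsp90aa1 was the 1 gene lower with the combination than with MYCi975 (5.03%). For the combination against vehicle and for the interaction 0 of 8 were under 0.05 by limma, where 3.43% and 4.78% of all genes were. In both directions together 3.33% of all genes were under 0.05 for MYCi975 against vehicle, 2.78% for TMP195 against vehicle, 8.17% for the combination against MYCi975 and 4.40% for the combination against TMP195. Groups that did not overlap were found for Hsp90aa1 in the combination below MYCi975 (3.97% of all genes) and for Hspa8 and Hsf1 in the combination above TMP195 (5.48%).

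The median difference of the 8 genes was 0.21 for MYCi975 against vehicle, -0.13 for TMP195 against vehicle and 0.06 for the combination against vehicle. It was -0.17 for the combination against MYCi975 and 0.19 for the combination against TMP195, while the medians over all tested genes lay between -0.0022 and 0.0073. Leaving out vehicle replicate 3 turned the median for the combination against vehicle to -0.042, and without combination replicate 2 it was 0.26. For TMP195 against vehicle it was -0.30 when TMP195 replicate 3 was left out and -0.023 when replicate 2 was. For MYCi975 against vehicle it was 0.13 without vehicle replicate 3 and 0.32 without MYCi975 replicate 2. For the combination against MYCi975 it was -0.080 without combination replicate 2, and against TMP195 0.093 and 0.31 when TMP195 replicates 1 and 3 were left out in turn. With MYCi975 7 of 8 genes were higher than with vehicle, where 51.7% of all tested genes were higher. For the interaction, which asks whether the effect of MYCi975 differs in the presence of TMP195, 4 genes were above 0 and 4 below. Hspa1a had a value of -0.63 (95% interval -1.61 to 0.35, limma adjusted p = 0.911), which was -0.28 without TMP195 replicate 3.

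The members did not vary as 1 unit. Over the 14 libraries, 63 relations were computed, between all pairs of the 9 genes and between each gene and the means of immediate early, leukocyte and skeletal muscle genes. Of these 4 passed at an adjusted permutation p of 0.05. Hspa1a and Hspa1b varied together (Pearson's r = 0.92, permutation p = 2e-05, adjusted p = 0.00126, Spearman's rho = 0.93, permutation p = 2e-05, adjusted p = 0.00126), as genes that share reads can. After leaving out the 2 libraries with the most extreme Hspa1a, MYCi975 replicates 1 and 2, r was 0.93.

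Hsph1 and Dnajb1, which share no such sequence, also varied together, with r = 0.81 (permutation p = 0.00058, adjusted p = 0.016) and rho = 0.82 (permutation p = 0.00056, adjusted p = 0.0176). The value was 0.80 after leaving out its 2 most extreme libraries and 0.84 with each value centred on its group mean. Hsph1 left a gap around 10, however, and within the 6 libraries below it r was 0.45 (exact permutation p = 0.403) and within the 8 above it 0.72 (exact permutation p = 0.0509). Hspa1b and Dnajb1 had r = 0.72 (permutation p = 0.00588, adjusted p = 0.0741) and rho = 0.63 (permutation p = 0.0181, adjusted p = 0.149). After leaving out the 2 libraries with the most extreme Hspa1b it was 0.66, and without MYCi975 replicate 2, in which Hspa1b was high and Dnajb1 low, it was 0.89. For the copy Hspa1a and Dnajb1 r was lower, at 0.46 (permutation p = 0.0977, adjusted p = 0.362), with rho = 0.45 (permutation p = 0.1025, adjusted p = 0.359). Without MYCi975 replicates 1 and 2 r of Hspa1a and Dnajb1 was 0.70, and without MYCi975 replicate 2 alone 0.76.

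The HSP90 genes formed the other pair, with r = 0.78 (permutation p = 0.00128, adjusted p = 0.0202) and rho = 0.75 (permutation p = 0.00319, adjusted p = 0.067). After leaving out the 2 libraries with the most extreme Hsp90aa1 r was 0.64, and 0.64 with values centred on group means. Hsp90ab1 did not pass with Dnajb1 (r = -0.22, permutation p = 0.435, adjusted p = 0.741, rho = -0.15, permutation p = 0.605, adjusted p = 0.886) and r was -0.55 after leaving out its 2 most extreme libraries. Its relation with Hspa1b was r = 0.13 (permutation p = 0.655, adjusted p = 0.825) and rho = 0.14 (permutation p = 0.637, adjusted p = 0.913), with r = 0.38 for Hspa1b without its 2 farthest libraries.

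The fourth relation past the threshold was that of Hspa1a with the immediate early mean, at r = 0.77 (permutation p = 0.00076, adjusted p = 0.016) and rho = 0.65 (permutation p = 0.0142, adjusted p = 0.149). Without MYCi975 replicates 1 and 2, the libraries with the most extreme immediate early mean, r was 0.48. It was 0.66 without MYCi975 replicate 2 alone and 0.70 with values centred on group means. The copy Hspa1b did not pass with the same mean, at r = 0.57 (permutation p = 0.02315, adjusted p = 0.202). Its rho was 0.63 (permutation p = 0.0184, adjusted p = 0.149), and r was 0.42 without the same 2 libraries. Dnajb1 did not pass with that mean (r = 0.06, permutation p = 0.86, adjusted p = 0.95, rho = 0.12, permutation p = 0.692, adjusted p = 0.92), with r = 0.22 without the same 2 libraries. Hsf1 ran against the immediate early mean, with r = -0.61 (permutation p = 0.0208, adjusted p = 0.202), rho = -0.63 (permutation p = 0.0189, adjusted p = 0.149) and r = -0.63 without those 2, but did not pass after adjustment. The labels give no batch, so no values within batches could be computed.

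**Figure D4:**
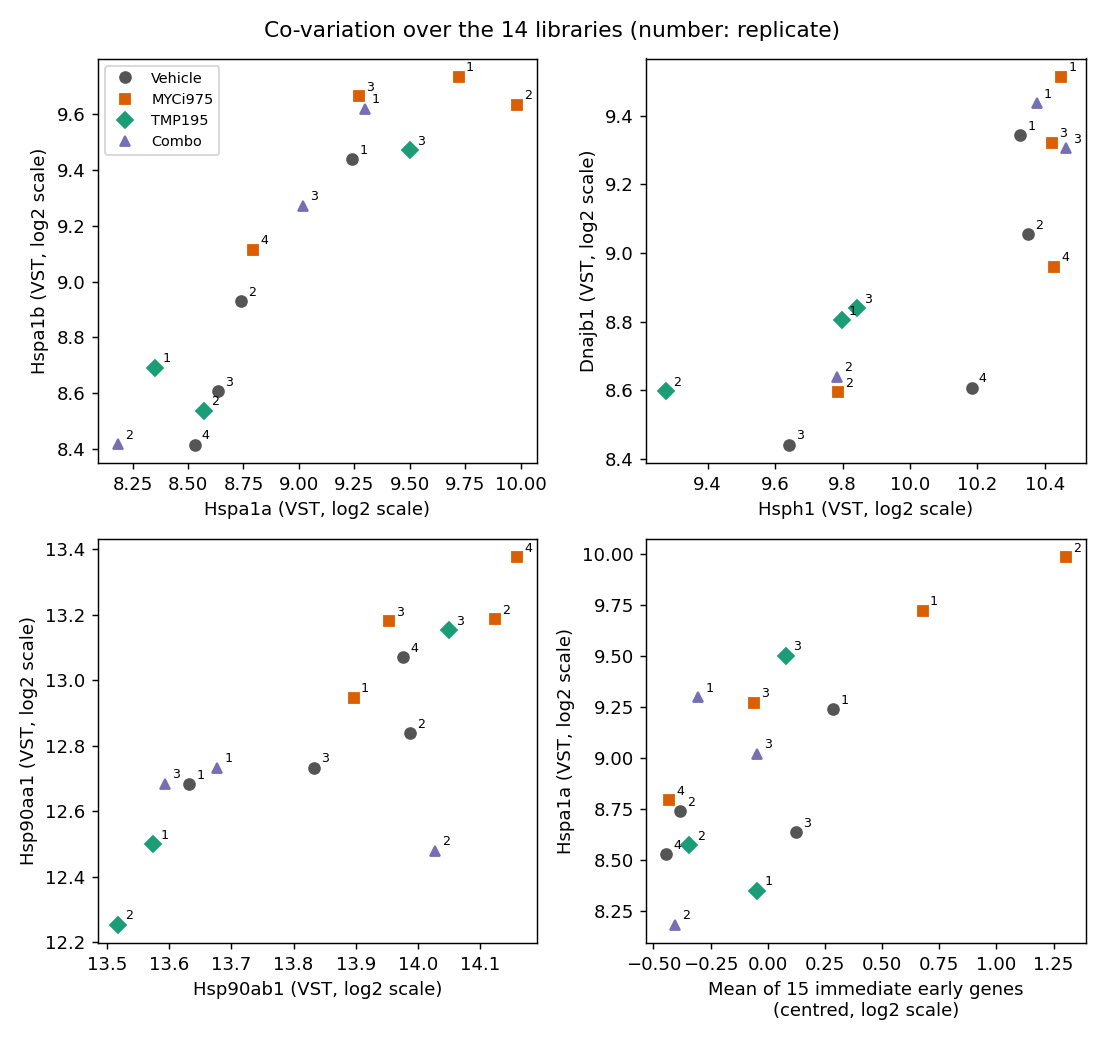
Values of gene pairs in the 14 libraries on the variance-stabilised log2 scale, with symbols for the groups and numbers for the replicates, and at lower right Hspa1a (y axis) against the centred mean of 15 immediate early genes (x axis). Hspa1a with Hspa1b (r = 0.92), Hsph1 with Dnajb1 (r = 0.81) and Hsp90ab1 with Hsp90aa1 (r = 0.78) vary together. In the fourth panel r is 0.77, or 0.48 without MYCi975 replicates 1 and 2.

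For a ranking of similar genes, the members, genes without a symbol, predicted or clone-named genes, pseudogenes and mitochondrially encoded genes were left out. Among the other tested genes, the pattern of Hspa1b over the 14 libraries was most like those of Usp32 (r = 0.85), Mtch2 (0.82), Zfp280b (0.81), Ypel5 (0.81) and Gfm1 (0.80). That of Hsp90ab1 was most like those of Metap2 (r = 0.95), Lrrk2 (0.92), Snrpd1 (0.92), Hnrnpm (0.91) and Htatsf1 (0.91). These are descriptions, ranked over those of the 13711 tested genes that were not left out. All share the same libraries, and no test belongs to them.

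The wider chaperone network was described from 8 further lists with 60 genes, of which 50 were tested and none was called in any comparison. Among co-chaperones of HSP70 and HSP90, 9 of 14 were higher with MYCi975 than with vehicle, 11 of 14 were lower with TMP195 and 10 of 14 were lower with the combination than with MYCi975. Of all tested genes, 51.7%, 50.8% and 50.2% were higher in these 3 comparisons. Ahsa1, which speeds the ATPase of HSP90, was 8.73, 8.74, 8.93 and 8.54 with MYCi975 and 8.26, 8.37 and 8.49 with the combination. These groups did not overlap, as was so for 3.97% of all tested genes in this direction. The difference was -0.36 (95% interval -0.62 to -0.11, limma adjusted p = 0.611). Its highest combination library lay about level with the lowest vehicle library, at 8.49. Cdc37, which brings kinases to HSP90, and St13, a co-chaperone of HSP70, likewise had no overlap between the combination and MYCi975. Their differences were -0.25 and -0.35. They are named after their values were seen, as is Bag2, a co-chaperone of HSP70, with a difference of -0.33 for TMP195 against vehicle, or -0.20 without TMP195 replicate 3.

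Fkbp5, an immunophilin that binds HSP90 in steroid receptor complexes, had differences above 0. It was 8.47, 8.58, 8.498 and 8.04 with vehicle and 8.94, 9.28 and 9.03 with the combination. The difference was 0.68 (95% interval 0.20 to 1.17, limma adjusted p = 0.992), and with TMP195 alone it was 0.50 (0.02 to 0.99), or 0.30 without TMP195 replicate 3.

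Of the other HSP70 and HSP110 genes, Hspa4, an HSP110 protein, was 10.66, 10.83, 10.71 and 10.97 with MYCi975 and 10.28, 10.35 and 10.28 with the combination. The difference was -0.49 (95% interval -0.91 to -0.07, limma adjusted p = 0.611). Hspa14, a ribosome-associated HSP70, differed by -0.26 (-0.55 to 0.02) in the same comparison. Among the other J-domain genes Dnaja2 differed by -0.51 (-0.92 to -0.10) there, with no overlap (3.97% of all tested genes). Dnajb4 was higher with the combination than with vehicle by 0.40 (0.07 to 0.73), at 8.15, 7.69 and 7.74 against 7.41 to 7.51. The difference was 0.25 without combination replicate 1. None of these passed after adjustment.

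The cytosolic chaperonin TRiC, a ring of 8 subunits that folds actin and tubulin, had 8 of 8 genes lower with TMP195 than with vehicle, by a median of -0.09, and 8 of 8 higher with the combination than with TMP195, by 0.18. Without TMP195 replicate 1 these were 6 of 8 lower and 5 of 8 higher, by medians of -0.033 and 0.14. Of all tested genes, 50.8% were higher with TMP195 than with vehicle and 51.1% with the combination than with TMP195. The subunit gene Cct7 was 10.22, 10.22 and 9.82 with the combination against 9.34, 9.30 and 9.72 with TMP195, a difference of 0.63 (95% interval 0.22 to 1.04, limma adjusted p = 0.998). Tcp1, another subunit, differed by 0.25 (-0.11 to 0.60) between the combination and MYCi975, or 0.10 without MYCi975 replicate 2. Chaperones of the endoplasmic reticulum and mitochondria had medians between -0.14 and 0.06 over the 6 comparisons, with Hspe1, the mitochondrial co-chaperonin, at -0.20 for TMP195 against vehicle and Hsp90b1 at -0.19 for the combination against TMP195. These were -0.11 without vehicle replicate 2 and -0.051 without combination replicate 2.

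Of the other heat shock factors and regulators, Hsf2 differed by -0.15 in the interaction and Hsbp1, a negative regulator of HSF1, by 0.17 for MYCi975 against vehicle. These were -0.075 without vehicle replicate 3 and 0.090 without MYCi975 replicate 2. The 6 other stress-inducible genes were all higher on average with MYCi975 and with TMP195 than with vehicle, by medians of 0.17 and 0.19. Of all tested genes, 51.7% and 50.8% were higher there. With the combination 3 were higher and 3 lower than with vehicle, and 1 was higher and 5 lower than with TMP195. Among them Hmox1, haem oxygenase, lay lower with the combination than with TMP195, by -0.67 (95% interval -1.25 to -0.09, limma adjusted p = 0.998). Dedd2 had an interaction of -0.87 (-1.71 to -0.03, limma adjusted p = 0.911). In MYCi975 replicate 2 Dedd2 was 7.52, against 5.74 to 6.67 in the other libraries, and without it the interaction was -0.56.

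**Figure D5:**
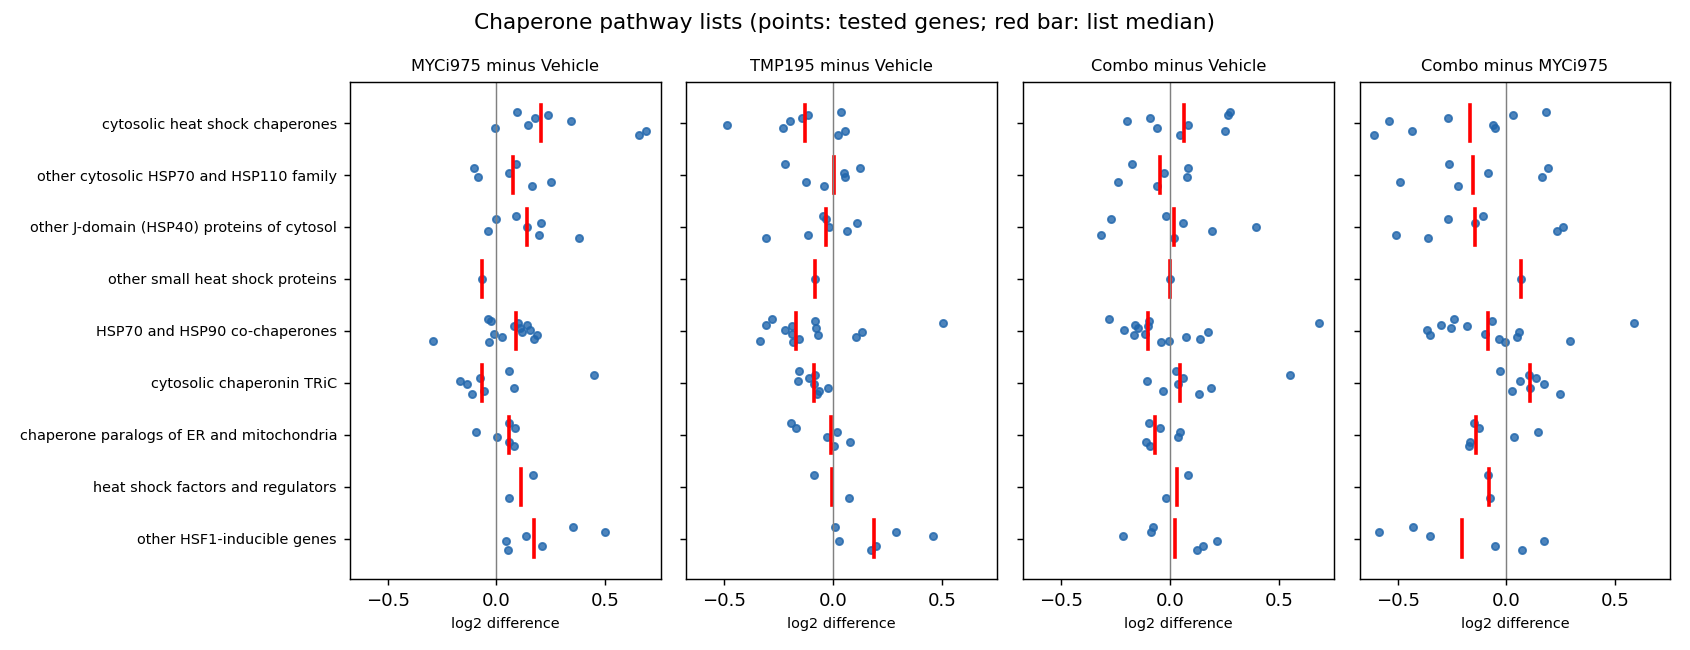
Differences between groups (x axis, log2 scale) for the tested genes of the 8 tested heat shock chaperones and of 8 further chaperone and stress lists (y axis), where points are genes and red bars are list medians, with 1 panel per comparison. The points lie on both sides of 0 in most lists, all 8 TRiC genes lie below 0 for TMP195 minus vehicle, and no gene passed after adjustment over all genes.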

How the data were processed

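RNA sequencing libraries were made with a stranded total RNA kit, per the labels' protocols. The deposited log2-scale values are 1 variance-stabilised column per library, made by the authors, per the file headers. Quantification used Salmon (version not named) and the human build hg38, per the submitters' processing notes, although the gene IDs are mouse. The files' build is thus unsettled, and coordinates are RefSeq's own. The sources used here name no scaling step. Of 21152 IDs, 20264 matched a mouse symbol in GENCODE M21.

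Genes were tested when their mean lay over 1 log2 unit above the floor (13711 genes). One limma 3.58.1 model in R 4.3.3 with a mean per group and an intensity trend was fitted to all 14 libraries (10 residual degrees of freedom), two-sided, and adjusted p-values cover all tested genes. Correlations used 100000 permutations (two-sided) in Python 3.11.15, adjusted over 63 relations. Scripts were tested on simulated data. The members, lists and tests were chosen with earlier results of these data known. One gene of a wider list is not reported here. Named were the 9 members, in each wider list the 2 genes with the smallest p, and the 5 genes most correlated with Hspa1b and with Hsp90ab1. Members, genes without a symbol, predicted or clone-named genes, pseudogenes and mitochondrially encoded genes were left out of that last ranking. Averaging Hspa1a and Hspa1b and splitting libraries at an Hsph1 value of 10 were chosen after seeing the data. Depth is unknown, and the number of libraries limits the precision.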

Additional observations from a re-analysis of the deposited data

Results flagged for a closer look

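Of the groups of 4 libraries (vehicle and MYCi975), 18 gene and group combinations were checked for a library far from the rest, and 2 had one, where chance gives about 1 in 20. Hsph1 in MYCi975 replicate 2 was 9.79, against 10.42 to 10.45 in the other MYCi975 libraries. Hspa1b in MYCi975 replicate 4 was 9.11, against 9.63 to 9.73. No interaction of the agents passed limma's test for any of the 8 genes tested.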

How the results depend on the processing

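Under every alternative run, limma called 0 genes in each of the 6 comparisons, and the median over the 8 tested genes moved by less than the spread between libraries. That median nevertheless turned direction when single libraries were left out, from 0.064 to -0.042 for the combination against vehicle and from 0.010 to -0.076 (without TMP195 replicate 2) for the interaction. Some single genes turned direction too. With quantile normalisation Hspa8 became 0.14 and Hsp90ab1 0.060 for the combination against vehicle, Hspa8 0.15 for the combination against MYCi975 and Hsp90aa1 0.009 for the combination against TMP195, the last also 0.013 with median centring. The cause was not tested.

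Whether the shared replicate numbers pair the libraries could not be settled from these values. Over 19 pairs with the same number, the correlation of deviations from group means ran from -0.30 to 0.21, with a median of 0.036 and 6 over 0.1. Over 54 pairs with different numbers it ran from -0.25 to 0.34, with a median of -0.0036 and 14 over 0.1. Of the 14 libraries, 6 correlated best with a library of their own number. With a replicate block no call changed. For TMP195 against vehicle Hspa1b became -0.090 and Hspa1a -0.13, for the combination against vehicle Hspa1a became -0.10, and for the combination against MYCi975 Dnajb1 became -0.035.

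Leaving out 1 library at a time turned the direction of these differences, given as lowest to highest. For MYCi975 against vehicle Hspa8 ran from -0.082 to 0.072 and Hsph1 from -0.017 to 0.31. For TMP195 against vehicle Dnajb1 ran from -0.25 to 0.045, Hspa1b from -0.23 to 0.25 and Hspa1a from -0.325 to 0.25. For the combination against vehicle Hspa8 ran from -0.13 to 0.019, Hsph1 from -0.08 to 0.29, Hspa1b from -0.0037 to 0.60 and Hspa1a from -0.18 to 0.37. For the combination against MYCi975 Dnajb1 ran from -0.14 to 0.27, Hspa8 from -0.089 to 0.022 and Hsph1 from -0.22 to 0.15. For the combination against TMP195 Hsp90aa1 ran from -0.19 to 0.26, Hsp90ab1 from -0.078 to 0.22, Hspa1b from -0.056 to 0.545 and Hspa1a from -0.21 to 0.37. For the interaction Dnajb1 ran from -0.023 to 0.39 and Hsp90ab1 from -0.25 to 0.044. Hsp90ab1 for the combination against vehicle kept its direction there but turned with quantile normalisation, as given above. The other differences of the 8 genes kept their direction under the alternatives run. Some of them moved by over 1.5 times, and not all of these are given in the report. For the interaction, leaving out single libraries gave -0.53 to -0.085 for Hsp90aa1 (-0.34 with all) and -0.74 to -0.14 for Hspa1b (-0.49 with all). Leaving out libraries from the marker and pathway lists was chosen after seeing the data. Averaging Hspa1a and Hspa1b, an alternative chosen after seeing the data, gave 0.67 for MYCi975 against vehicle and -0.52 for the combination against MYCi975.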
